A study of Drosophila melanogaster with 8 samples.

Results

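The genes described here encode the core of EGF receptor signaling in *Drosophila melanogaster*: the receptor Egfr, the ligands spi, vn and Krn, the ligand proteases rho and ru, the inhibitors aos, sty and kek1, and the transcription factor pnt. They were chosen by name, with earlier results of these data known. All 10 were found among the 16845 gene identifiers of the count table. RNA was sequenced from the terminalia (genital and anal structures) of male pupae at 28 hr after puparium formation (APF) and 24 hr APF, with 4 libraries at each time point. All pupae carried the genotype yw;+;+, and each library came from the terminalia of 1 pupa. The values therefore describe 1 genetic background, and age and collection cannot be told apart.

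In flies, the receptor tyrosine kinase Egfr is bound by several ligands of the EGF family. Spi and Krn are made as membrane-bound precursors that must be cut by a Rhomboid protease before they can signal, whereas Vn is secreted without this step. Receptor activity passes through Ras and the MAP kinase cascade to Pnt, an ETS-domain activator in the nucleus. Active signaling switches on several of its own inhibitors, of which Aos binds the ligand outside the cell, Kek1 binds the receptor in the membrane, and Sty acts inside the cell on the Ras pathway. The pathway is known for roles in cell fate, survival and the patterning of epithelia, including the imaginal discs from which adult structures form.

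Reads totaled between 28463333 and 33831406 per library at 28 hr APF and between 24534188 and 35795240 at 24 hr APF. The 10 genes were well covered, with counts from 222 for ru to 13835 for Egfr in a single library. Transcripts of the terminalia factors Abd-B, dsx, Poxn, ems, cad and byn were present in all libraries, and their levels summed to between 371 and 409.8 rpkm at 28 hr APF and between 324 and 363 rpkm at 24 hr APF (rpkm: counts scaled to the kilobases of unioned exons and to the library total). Muscle markers were also clearly present and summed to between 241 and 302 rpkm at 28 hr APF and between 296 and 394 rpkm at 24 hr APF, mostly from Act57B. Among 6 muscle markers, 3 were higher and 3 lower at 28 hr APF, against 15.6% and 17.3% of all tested genes. Neuron markers were low, at 9.36 to 11.5 rpkm at 28 hr APF and 6.95 to 8.70 rpkm at 24 hr APF, and 5 of 6 were higher at 28 hr APF. Hemocyte markers summed to between 4.48 and 8.07 rpkm at 28 hr APF and between 4.34 and 11.3 rpkm at 24 hr APF, and fat body markers to between 8.67 and 23.0 rpkm and between 3.10 and 43.3 rpkm at these time points. None of the tested markers of these last lists, and neither of 2 trachea markers, passed the test between the time points. In bulk tissue, fewer cells of a type and less RNA per cell cannot be told apart.

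All 10 genes were transcribed in the terminalia at both time points, and 7 of them were moderately higher at 28 hr APF. Egfr, vn, Krn, ru, sty, pnt and kek1 passed an adjusted p-value of 0.05 (edgeR's quasi-likelihood test, Benjamini-Hochberg adjustment over 11232 tested genes), with fitted increases between 14.2% for pnt and 27.6% for ru. None was lower. For spi, rho and aos the test did not find a difference. Across all tested genes, 32.9% differed between the time points, 15.6% being higher and 17.3% lower at 28 hr APF. The median log2 fold change was 0.20 over the 10 genes and 0.0037 over all tested genes. The changes were small next to those of other genes. The median absolute log2 fold change was 0.26 for the 7 genes and 0.37 for all genes that differed.

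The plot of levels by library shows these values for each gene.

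**Figure D1:**
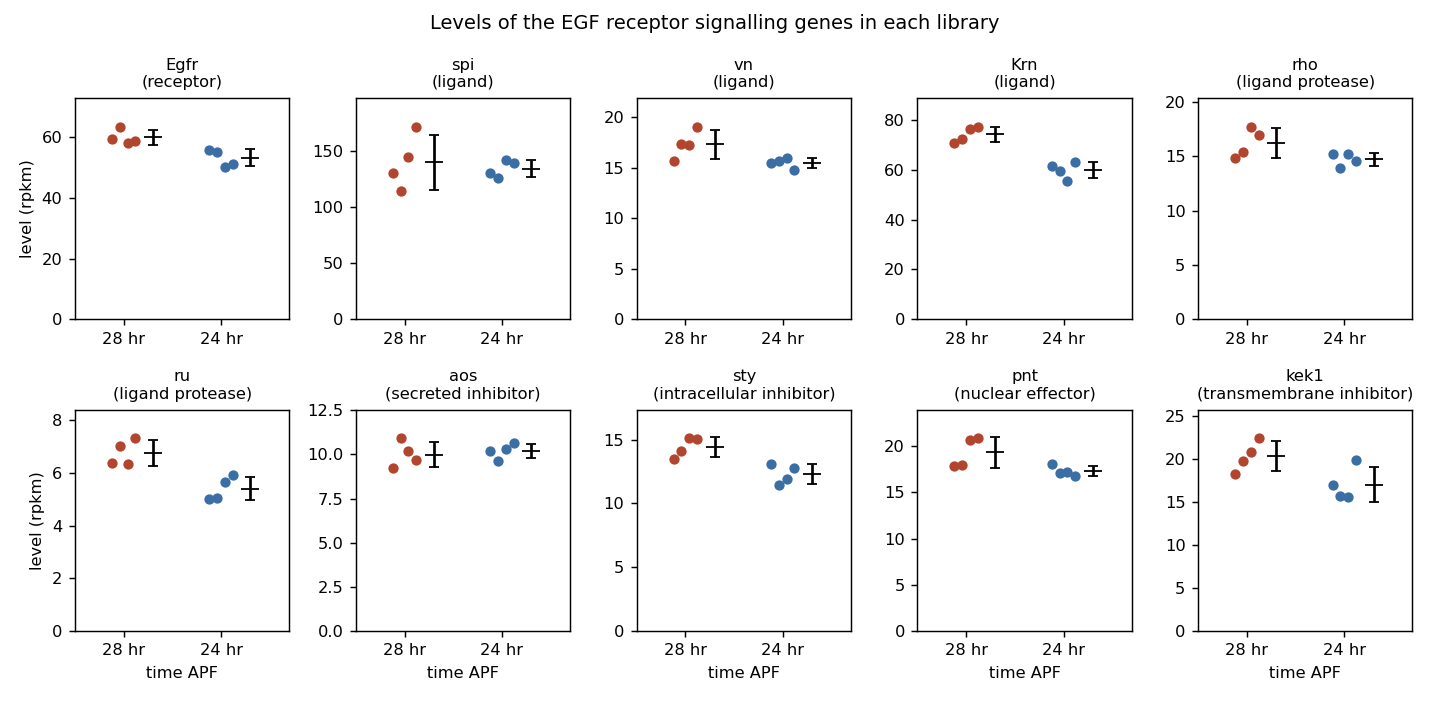
Levels (rpkm) of the 10 genes in 4 libraries at 28 hr APF and 24 hr APF, each axis starting at 0, with the mean and SD beside the points. The libraries of the time points do not overlap for Egfr, Krn, ru and sty, and aos has almost the same mean at both, 9.99 and 10.2 rpkm.

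The receptor gene Egfr (FBgn0003731) lies on chromosome arm 2R from 21522420 to 21559977 of the BDGP6 assembly. Its level was 59.6, 63.5, 58.1 and 58.9 rpkm in replicates 1 to 4 at 28 hr APF, against 56.0, 55.3, 50.3 and 51.3 rpkm at 24 hr APF. Every library at 28 hr APF was above every library at 24 hr APF. The log2 fold change was 0.20 (standard error 0.05, adjusted p = 0.00748), and Egfr kept its call whichever library was left out.

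Egfr was among the most abundant receptor tyrosine kinase transcripts in this tissue. Of 15 receptor tyrosine kinase genes with a level here, it had rank 3 at both time points when levels were scaled to unioned exons. Scaled to longest transcripts, an alternative chosen after the data were seen, Egfr had rank 2 at both, with 68.1 rpkm against 64.3 rpkm for Eph at 28 hr APF, and the ranges of Egfr and Eph overlapped at both time points. Over unioned exons, at 28 hr APF it averaged 60.02 ± 2.41 rpkm, below the Wnt receptor drl at 97.5 ± 1.21 rpkm and next to the ephrin receptor Eph at 62.9 ± 1.22 rpkm (SD, n = 4 each). The ranges of Eph and Egfr overlapped at 28 hr APF, whereas at 24 hr APF Eph, with at least 57.2 rpkm, lay above the highest Egfr value of 56.0 rpkm. Next came dnt at 39.8 ± 2.09 rpkm (SD, n = 4), clear of Egfr in all libraries. The genes of the receptors known for roles in the eye and the early embryo, sev and tor, lay at 0.117 and 0.0975 rpkm at 28 hr APF. The insulin receptor InR and the FGF receptor btl were not analysed here.

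**Figure D2:**
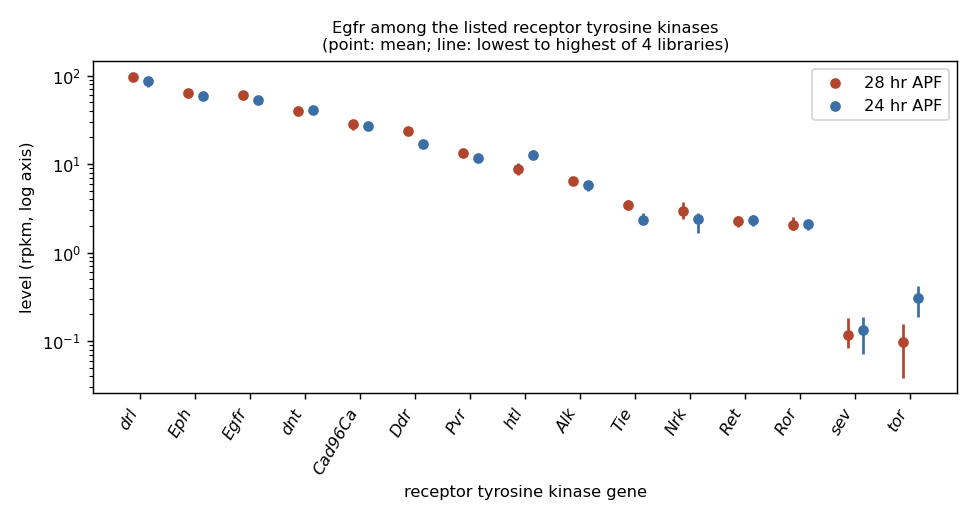
Mean level (rpkm, log axis) of Egfr and 14 other receptor tyrosine kinase genes at 28 hr APF and 24 hr APF, with lines from the lowest to the highest of 4 libraries. On this scale of unioned exons Egfr has rank 3 at both time points, close to Eph and below drl.

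Several of the other receptor genes also changed. Of 14 tested, 6 rose and 2 fell at 28 hr APF, against 15.6% and 17.3% of all tested genes. Over these 14 genes the median log2 fold change was 0.11. The largest increases were those of Tie and of the discoidin domain receptor gene Ddr, with log2 fold changes of 0.59 and 0.54 (standard errors 0.10 and 0.07, adjusted p = 0.00143 and 0.000182). They were followed by Pvr, the receptor for PDGF- and VEGF-related factors, at 0.22 and the anaplastic lymphoma kinase ortholog Alk at 0.20. The decreases were those of tor at -1.63 and of the FGF receptor htl, which is known for its role in mesoderm, at -0.47. Calls for Alk, drl and tor were lost in 6, 7 and 5 of 8 fits with 1 library removed, those for Alk and drl also with library totals alone, and that for drl also without the filter. The log2 fold change of Egfr, 0.20, was close to those of Pvr and Alk.

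The ligand genes differed widely in level. The principal ligand gene of many tissues, spi (FBgn0005672, arm 2L, 19567900 to 19577315), was the most abundant of the 10 genes. It had 130.2, 114, 144 and 172 rpkm at 28 hr APF, against 129.95, 125, 142 and 139 rpkm at 24 hr APF. Both the highest and the lowest of these values came from 28 hr APF, where the SD was 24.4 rpkm around a mean of 139.9 rpkm, compared to 7.78 rpkm around 134 rpkm at 24 hr APF (n = 4 each). The log2 fold change was 0.09 (standard error 0.10, adjusted p = 0.548), and it became -0.019 without replicate 4 of 28 hr APF.

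Krn (FBgn0052179, arm 3L, 17649562 to 17654280), which encodes a ligand closely related to Spi, rose. Its level was 70.9, 72.4, 76.7 and 77.5 rpkm at 28 hr APF, against 61.7, 59.8, 55.7 and 63.1 rpkm at 24 hr APF. The libraries did not overlap, and the log2 fold change was 0.34 (standard error 0.06, adjusted p = 0.00121), the lowest p-value among the 10 genes. In the BDGP6 annotation, 21.3% of the exon bases of Krn are shared with Ndfip, a gene on the same strand that spans Krn. Ndfip had 43.0 ± 1.25 rpkm at 28 hr APF and 37.5 ± 0.865 rpkm at 24 hr APF (SD, n = 4 each). Its log2 fold change was 0.23 (adjusted p = 0.00175). Reads on the shared bases cannot be assigned to 1 of these genes, so the level and the change of Krn are uncertain by that part.

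The neuregulin-like ligand gene vn (FBgn0003984, arm 3L, 5813338 to 5845664) was less abundant than spi and Krn. It had 15.6, 17.4, 17.3 and 19.1 rpkm at 28 hr APF, against 15.5, 15.7, 16.0 and 14.8 rpkm at 24 hr APF. Replicate 1 of 28 hr APF lay within the range of 24 hr APF. The log2 fold change was 0.20 (standard error 0.06, adjusted p = 0.0237), but the call held in only 2 of the 8 fits with 1 library removed. It held without replicate 1 of 28 hr APF and without replicate 3 of 24 hr APF, and was lost, with adjusted p-values up to 0.0617, without any other library. It was also lost with library totals alone in place of TMM (adjusted p = 0.0519).

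Shares were taken of the summed rpkm of spi, Krn and vn. At 28 hr APF spi made up 60.1% ± 3.31, Krn 32.3% ± 2.73 and vn 7.53% ± 0.667 of this sum. At 24 hr APF the shares were 63.9% ± 1.84, 28.7% ± 1.78 and 7.39% ± 0.406 (SD, n = 4 each). The shares of all 3 genes overlapped between the time points. The order spi, Krn, vn held in every library. The ligand gene grk, which is outside the chosen genes, was not part of the sum. It had 8.11 ± 1.87 rpkm at 28 hr APF and 6.66 ± 1.81 rpkm at 24 hr APF (SD, n = 4 each).

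**Figure D3:**
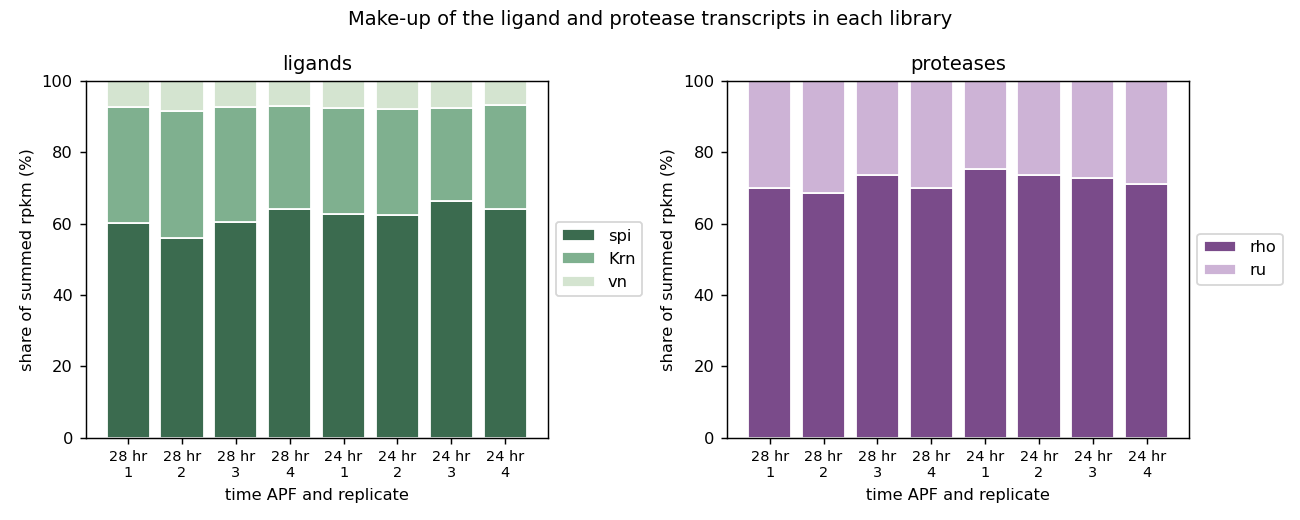
Share (%) of spi, Krn and vn in their summed rpkm, and of rho and ru in theirs, in each library of 28 hr APF and 24 hr APF. The make-up is alike in all libraries, with spi at 55.9% or more of its sum and rho at 68.7% or more of its sum. Other ligand and Rhomboid genes, among them grk and rho-4, are not part of these sums.

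The protease gene rho (FBgn0004635) lies on arm 3L from 1463811 to 1468944, and its paralog ru (FBgn0003295) lies on the same arm from 1370628 to 1387437. Rhomboid proteases cut the ligand precursors inside the membrane, and rho transcription is known to set where the pathway is active in many fly tissues. rho had 14.9, 15.4, 17.7 and 16.98 rpkm at 28 hr APF, against 15.2, 13.97, 15.2 and 14.5 rpkm at 24 hr APF. Replicates 2, 3 and 4 of 28 hr APF were above all libraries of 24 hr APF, and replicate 1 lay within their range. The log2 fold change of rho was 0.17 (standard error 0.07, adjusted p = 0.0747), which did not pass the threshold. Without replicate 1 of 28 hr APF, rho passed it (adjusted p = 0.0299).

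ru had the lowest level of the 10 genes and the largest change. Its level was 6.39, 7.01, 6.34 and 7.32 rpkm at 28 hr APF, against 5.02, 5.03, 5.66 and 5.92 rpkm at 24 hr APF. The libraries did not overlap, the log2 fold change was 0.35 (standard error 0.09, adjusted p = 0.0113), and ru passed the threshold whichever library was left out. ru made up 29.5% ± 2.16 of the summed rpkm of rho and ru at 28 hr APF and 26.8% ± 1.71 at 24 hr APF (SD, n = 4 each). These shares overlapped. Other Rhomboid family members, among them the more abundant rho-4 at 72.6 rpkm at 28 hr APF, were not part of this sum. Both rho and ru lie inside the span of Ptp61F in the BDGP6 annotation. Ptp61F was not analysed here. Among all 11231 other tested genes, those with the library profile nearest to ru, by the root mean square distance of centered log2 CPM over the 8 libraries, were Pur-alpha (distance 0.040), CG14883 (0.060) and lncRNA:CR44268 (0.061). The median distance over all genes was 0.26.

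Other genes listed under ligand processing were described by the same test, and their action on the ligands was not examined. Of 6 listed genes, 5 could be tested. Of these, 3 were higher and none lower at 28 hr APF, against 15.6% and 17.3% of all tested genes. The most abundant was rho-4, a further Rhomboid family member, at 72.6 ± 2.38 rpkm at 28 hr APF and 65.3 ± 4.10 rpkm at 24 hr APF (SD, n = 4 each), with a log2 fold change of 0.19 (standard error of 0.05, adjusted p = 0.0135). The family members stet and rho-5 had log2 fold changes of 0.80 and 0.45, at mean levels below 1 rpkm at both time points. The call for rho-5 was lost in all 8 fits with 1 library removed, with library totals alone and without the filter, and that for stet in 4 of the 8. S (Star), which carries the ligand precursors out of the endoplasmic reticulum, had 19.8 ± 1.29 rpkm at 28 hr APF and 18.8 ± 0.435 rpkm at 24 hr APF (SD, n = 4 each, adjusted p = 0.182).

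Of the inhibitor genes, sty and kek1 were higher at 28 hr APF and aos was not called. sty (FBgn0014388, arm 3L, 3401153 to 3424935) encodes Sprouty and had 13.5, 14.1, 15.1 and 15.1 rpkm at 28 hr APF, against 13.1, 11.4, 11.96 and 12.8 rpkm at 24 hr APF. The libraries did not overlap, and the log2 fold change was 0.26 (standard error 0.06, adjusted p = 0.00879), past the threshold whichever library was left out.

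kek1 (FBgn0015399, arm 2L, 12817000 to 12822787), which encodes a transmembrane protein with leucine-rich repeats, had 18.2, 19.7, 20.8 and 22.3 rpkm at 28 hr APF, against 16.95, 15.7, 15.5 and 19.8 rpkm at 24 hr APF. Replicate 4 of 24 hr APF overlapped the libraries of 28 hr APF, and kek1 had the largest coefficient of variation of the 10 genes at 24 hr APF, 11.7%. The fitted log2 fold change was 0.28 (standard error 0.09, adjusted p = 0.0375), and the call held in 2 of the 8 fits with 1 library removed. These were the fits without replicate 1 of 28 hr APF and without replicate 4 of 24 hr APF, and removing any other library gave adjusted p-values up to 0.105.

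aos (FBgn0004569, arm 3L, 16470386 to 16483650) is a target gene often used to read out pathway activity. It had 9.21, 10.9, 10.2 and 9.66 rpkm at 28 hr APF, against 10.2, 9.63, 10.3 and 10.6 rpkm at 24 hr APF. The time points overlapped, and the log2 fold change was 0.001 (standard error 0.07, adjusted p = 0.993). In the fits that left out 1 library it ranged from -0.046 to 0.043, and with library totals alone in place of TMM it was -0.031. Whether aos differed in its change from sty and kek1 was not tested. In the BDGP6 annotation aos lies inside the span of CG33158, which had 5.12 ± 0.461 rpkm at 28 hr APF and 7.33 ± 0.286 rpkm at 24 hr APF (SD, n = 4 each). Its log2 fold change was -0.49 (adjusted p = 0.000365). No exon bases of aos are shared with that gene, and the part of its reads in the aos level was not tested.

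A further list held 13 genes, which were other inhibitors of the pathway and paralogs of kek1. Of these 13, 4 rose and 1 fell at 28 hr APF, against 15.6% and 17.3% of all tested genes. Over the list the median log2 fold change was 0.07. Whether the paralogs act on this pathway was not examined here. Mkp3, the phosphatase that inactivates the MAP kinase, rose to 45.9 ± 1.43 rpkm at 28 hr APF, against 39.4 ± 1.38 rpkm at 24 hr APF (SD, n = 4 each). Its log2 fold change was 0.25 (standard error 0.04, adjusted p = 0.000529). The kek1 paralog kek5 was also higher, with a log2 fold change of 0.16 at 49.7 ± 1.99 rpkm at 28 hr APF and 45.6 ± 1.21 rpkm at 24 hr APF, and Spred, a relative of Sprouty, had 0.13. The call for Spred was lost in 5 of 8 fits with 1 library removed, with library totals alone and without the filter. The paralogs kek3 and kek4 had larger changes at low levels. kek3 had 0.147 and 0.0534 rpkm at 28 hr and 24 hr APF and a log2 fold change of 1.48, and kek4 had 0.908 and 1.61 rpkm and a log2 fold change of -0.79. The most abundant gene of this list, the Ras GTPase-activating protein vap, had 59.3 ± 0.803 rpkm at 28 hr APF and 61.7 ± 0.658 rpkm at 24 hr APF (SD, n = 4 each, adjusted p = 0.585).

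pnt (FBgn0003118, arm 3R, 23290231 to 23346167) had 17.9, 18.0, 20.6 and 20.8 rpkm at 28 hr APF, against 18.1, 17.1, 17.2 and 16.8 rpkm at 24 hr APF. Replicates 1 and 2 of 28 hr APF lay within the range of 24 hr APF. The fitted log2 fold change was 0.19 (standard error 0.06, adjusted p = 0.0401), the highest p-value of the 7. The call was lost without replicate 3 or 4 of 28 hr APF and without replicate 2, 3 or 4 of 24 hr APF, with adjusted p-values up to 0.115. It was also lost with library totals alone (adjusted p = 0.0607) and without the filter on low counts (adjusted p = 0.0555). Its level depends on the gene length used. Scaled to its longest transcript alone, pnt had 29.03 rpkm at 28 hr APF, 1.502 times its level of 19.3 rpkm over the unioned exons.

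The other nuclear genes of the pathway moved in both directions. Of 8 tested, 4 were higher and 2 lower at 28 hr APF, against 15.6% and 17.3% of all tested genes. The ETS-domain repressor gene aop, whose product (Yan) competes with Pnt for DNA, rose to 54.4 ± 1.66 rpkm at 28 hr APF, against 40.4 ± 1.38 rpkm at 24 hr APF (SD, n = 4 each). Its log2 fold change was 0.46 (standard error 0.04, adjusted p = 1.96e-05). edl, which encodes a small protein that binds and antagonizes Yan, rose to 37.2 ± 8.01 rpkm at 28 hr APF, against 24.7 ± 1.44 rpkm at 24 hr APF (SD, n = 4 each). Its log2 fold change was 0.62 (standard error 0.13, adjusted p = 0.00411). Both passed the threshold whichever library was left out. The repressor gene ttk and the elongation factor gene lilli also rose, with log2 fold changes of 0.28 and 0.27. The corepressor gene gro fell by 0.18 on the log2 scale, and phyl, at 0.613 and 1.07 rpkm at 28 hr and 24 hr APF, had a log2 fold change of -0.78 whose call was lost in 7 of 8 fits with 1 library removed and without the filter.

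Of 13 tested genes of the cascade between receptor and nucleus, 2 were higher and 2 lower at 28 hr APF. Across all tested genes, 15.6% were higher and 17.3% lower, so these shares were close. Over the 13 genes the median log2 fold change was -0.0091. The adaptor gene drk had a log2 fold change of 0.15 (standard error of 0.04, adjusted p = 0.0130) and the phosphatase gene csw had 0.16, whereas the MAP kinase kinase gene Dsor1 had -0.12. The calls for csw and Dsor1 were lost in 6 and 5 of 8 fits with 1 library removed. That for csw was also lost with library totals alone and without the filter, and that for Dsor1 with RLE or upper-quartile factors, without the filter and in DESeq2 (adjusted p = 0.0608). 14-3-3epsilon, the most abundant gene of this list and a binding partner of Raf among many other proteins, had 665 ± 6.44 rpkm at 28 hr APF and 803 ± 15.2 rpkm at 24 hr APF (SD, n = 4 each). Its log2 fold change was -0.24 (standard error 0.04, adjusted p = 0.000490). Ras85D, Sos, Raf and rl did not pass the threshold, with log2 fold changes of -0.06, -0.0091, -0.11 and 0.09.

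**Figure D4:**
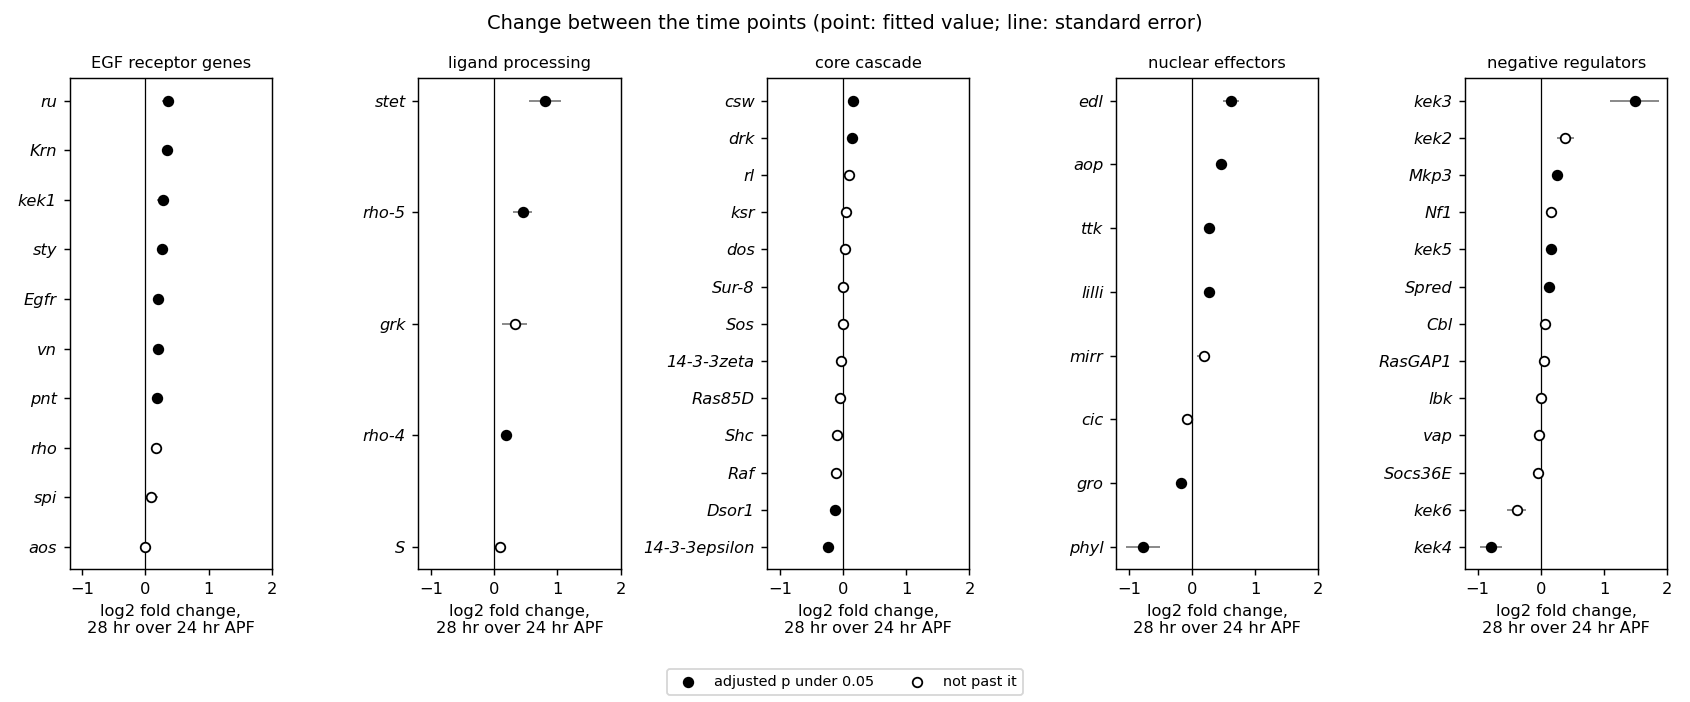
Log2 fold change of 28 hr over 24 hr APF with its standard error for the 10 EGF receptor genes and 4 lists of other genes. Points are filled where the adjusted p-value was under 0.05. The list of negative regulators also holds paralogs of kek1. The 10 genes lie between 0.001 and 0.35, and the core cascade lies between -0.24 and 0.16.

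The order of the 10 levels was nearly the same at both time points. At 28 hr APF it was spi, Krn, Egfr, kek1, pnt, vn, rho, sty, aos and ru, and the first 3 genes were each clear of the next in all libraries, as were aos and ru. kek1, pnt, vn, rho and sty lay between 14.5 ± 0.785 and 20.3 ± 1.76 rpkm (SD, n = 4 each). Of these genes, all but sty overlapped the next in the order, and sty was clear of aos. Further apart in it, kek1 and pnt were above rho and sty in all libraries, and vn was above sty. Scaled to longest transcripts instead, pnt was clear of kek1 and sty overlapped kek1, vn and rho. Krn and Egfr then also overlapped at 28 hr APF, with 70.9 to 77.5 and 65.9 to 72.1 rpkm. At 24 hr APF Egfr averaged 60.4 rpkm and Krn 60.1 rpkm on that scale. The middle order and that of Krn and Egfr therefore depend on the gene length used. Over unioned exons at 24 hr APF, pnt and kek1 exchanged places and Krn overlapped Egfr. Relative to all 16431 genes with a length, spi exceeded 96.5% of genes at 28 hr APF and ru exceeded 56.7%. The spread between pupae had a median coefficient of variation of 7.69% at 28 hr APF and 5.32% at 24 hr APF, compared to 8.01% and 7.08% over all tested genes at these time points.

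At 28 hr APF the highest and lowest levels of several of the genes fell in the same libraries. Replicate 4 held the highest level of 6 of the 10 genes at 28 hr APF and the lowest of none, and replicate 1 held the lowest of 7 and the highest of none. The same count over all tested genes was not made. Egfr, Krn, ru and sty separated the time points. In all, 4 of the 10 genes had all libraries at 28 hr APF above all libraries at 24 hr APF, compared to 13.3% of tested genes with a length. Without replicate 3 or without replicate 4 of 28 hr APF, or without replicate 2 of 24 hr APF, 4 of the 10 genes passed the threshold. These were Egfr, Krn, ru and sty in each case. Across all tested genes, 3221 of 11453, 3425 of 11396 and 3166 of 11508 were called in these fits. When tested against a fold change of 1.5, none of the 10 passed (edgeR's glmTreat, 531 of 11232 genes called in all).

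Of 6 terminalia markers, 4 were also higher at 28 hr APF, against 15.6% of all tested genes. These were Abd-B, dsx, Poxn and cad, with log2 fold changes of 0.18, 0.33, 0.19 and 0.27. Over the 6 markers the median was 0.21, compared to 0.20 over the 10 genes, and ems at 0.23 and byn at -0.10 did not pass the threshold. When each gene was divided by the summed level of the 6 markers in the same library, a comparison chosen after the data were seen and made without a test, all 10 genes overlapped between the time points. The differences of the mean log2 ratios then lay between -0.23 for aos and 0.13 for ru, with a median of -0.028, and 6 of the 10 were negative. ru and Krn had the highest values and spi and aos the lowest. The part of the terminalia markers in the increases of the 7 genes was not tested.

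**Figure D5:**
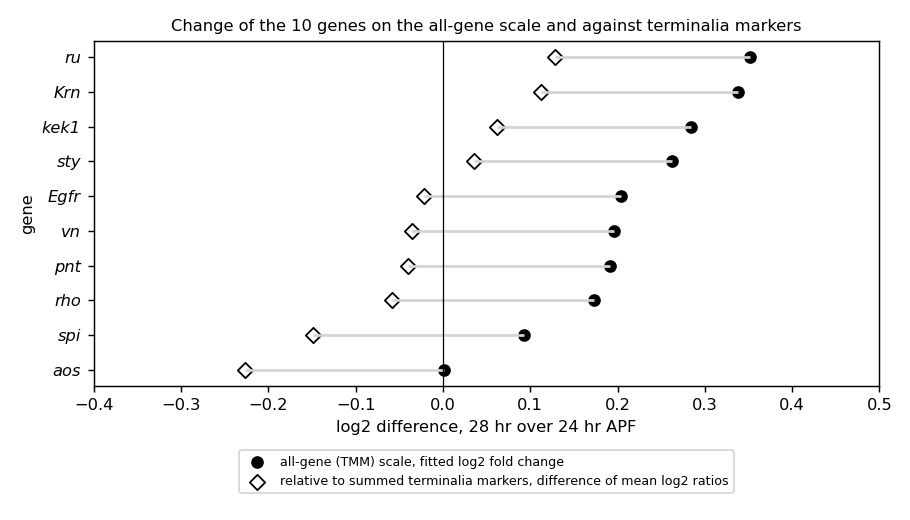
Difference between 28 hr and 24 hr APF (log2) of each of the 10 genes on the scale of all genes (filled circles) and relative to the summed rpkm of 6 terminalia markers (open diamonds). All circles lie at or above 0, and the diamonds lie on both sides of it, between -0.23 and 0.13.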

How the data were processed

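The authors used TopHat2 (version 2.0.13, per the labels) to align reads from poly-A libraries to dm3, counted reads in the unioned exons of FlyBase genes with bedtools, and deposited raw counts per gene and library without normalization. The handling of strand and of overlapping genes is not given in the sources used here. All libraries came from separate pupae, and no pair from 1 time point was a duplicate (lowest chi-square per degree of freedom 7.78).

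Gene names, lengths and positions came from an Ensembl annotation on BDGP6, matched by FlyBase identifier. The reads were counted on dm3, so the lengths behind the rpkm values can differ from those of the exons counted. No coordinates were converted, and 414 identifiers had no length. The rpkm values used library totals. For the comparison of time points, deposited counts went into edgeR 4.0.16 (R 4.3.3; TMM factors, filterByExpr with at least 10 counts, the quasi-likelihood test, and an adjusted p threshold of 0.05 by Benjamini-Hochberg), after the fit was tested on simulated counts. Standard errors were taken as the size of the log2 fold change over the root of its F statistic. Log2 CPM used a prior count of 2. Python 3.11.15 was used for the remaining steps.

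The 10 genes and all lists were chosen with earlier results of these data known. Other genes named were the most abundant of each list and up to 4 with the largest significant rise and fall. The 3 profiles nearest to the gene that changed most were also named. S, grk, Sos, Ras85D, Raf and rl, the remaining receptor genes, and Ndfip and CG33158 were added afterwards. Alternatives covered leaving out each library, other scalings, DESeq2 1.42.0, no filter, a replicate block, a minimum fold change, gene length and library size, and the ratio to terminalia markers and the order of levels by longest transcript were chosen after seeing the data. Sequences were not used here.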

Additional observations from a re-analysis of the deposited data

Results flagged for a closer look

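Among 78 groups of 4 libraries examined for the named genes, 1 library lay apart from the rest of its time point in 5, where chance gives about 3.9 (1 in 20), and none of the 5 was one of the 10 EGF receptor genes. At 28 hr APF, rho-5 was highest in replicate 4, at 1.16 rpkm, against at most 0.910 rpkm in the others. At 24 hr APF, ttk was lowest in replicate 4 at 73.56 rpkm, against at least 77.4 rpkm, and gro was lowest in replicate 2 at 45.86 rpkm, against at least 46.7 rpkm. Also at 24 hr APF, kek4 was highest in replicate 3 at 1.84 rpkm, against at most 1.55 rpkm, and Tie was highest in replicate 2 at 2.80 rpkm, against at most 2.19 rpkm.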

How the results depend on the processing

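Egfr, Krn, ru and sty kept their calls in all 8 fits that left out 1 library and in 6 others. Leaving out 1 library gave 4 to 8 of the 10 genes, and the minimum fold change of 1.5 gave 0 of the 10 and 531 genes in all, because a stricter hypothesis is tested. The remaining alternatives gave 5 to 7 of the 10: pnt and vn were lost with library totals alone, and pnt without the filter on low counts. The log2 fold change of spi ranged from -0.019 to 0.176 and that of aos from -0.046 to 0.043 when 1 library was left out; that of aos was -0.031 with library totals alone, -0.009 without the filter and -0.001 with the replicate block. The cause was not tested. Relative to the summed terminalia markers, Egfr had a log2 difference of -0.022, spi -0.149, vn -0.035, rho -0.058, aos -0.227 and pnt -0.04. Replicate numbers did not pair the pupae (correlations of deviations across genes of -0.16, 0.16, -0.22 and 0.14); with the replicate block 6 of the 10 genes and 3175 genes in all were called, pnt being the one lost. Of the other named genes, 10 lost their call under at least 1 alternative and none reversed. The longest transcript moved the level of 3 of the 10 genes by more than 1 SD, and scaling to protein-coding counts raised levels 1.13-fold. Depth limits values under 1 rpkm.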
